A study of Mus musculus with 3 samples.

Results

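The 9 genes described here encode interferon-induced GTPases: the guanylate-binding proteins Gbp2, Gbp3, Gbp7 and Gbp10, the immunity-related GTPases Igtp, Irgm1 and Iigp1, and the Mx GTPases Mx1 and Mx2. They were chosen by gene symbol among the main probe sets of the array, with earlier results of these arrays known, so their differences between arrays are a description and carry no test. Each had 1 main probe set, which makes 9 of 30921 gene symbols and 9 of 33793 main probe sets.

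The study used ICR mice, which are outbred, and read RNA of 100 mg frozen liver on MoGene-2_0-st arrays, with 3 arrays in all and 1 per group. Untreated mice had no treatment. Mice of the TMA group had distilled water for 2 weeks before 24 h of trimethylamine (TMA, a volatile amine with a fishy smell). Mice of the EEC+TMA group received EEC, an Ecklonia cava (brown alga) ethanol extract, orally for 2 weeks before the same 24 h of TMA. Mice entered the study at 8 weeks of age and were sampled at 10 weeks. The sources used here give no genotype, transgene, sex or dose, nor whether an array holds RNA of 1 mouse or of several. With 1 array per group there was no spread between samples, no error and no test, and the array, the animal and the treatment cannot be told apart.

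Interferon-induced GTPases are among the genes that cells switch on most strongly when interferon reaches them. Interferon-gamma acts on a promoter element known as GAS, and type I interferons act through a complex with STAT2 and IRF9 on the interferon-stimulated response element (ISRE). Guanylate-binding proteins and immunity-related GTPases then gather on the vacuoles of intracellular microbes and help to break them open, while Mx proteins act against RNA viruses. In the liver, hepatocytes, Kupffer cells and sinusoidal endothelium can all express such genes, and in a bulk sample fewer cells of a type and less RNA per cell cannot be told apart.

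RefSeq promoter windows of GRCm38.p6, from 250 bases before to 50 bases after a start site, were found for 5 of the 9 genes, namely Gbp2, Gbp3, Gbp7, Igtp and Irgm1. They were searched on both strands for the ISRE core, which is GAAA, any 2 bases (NN) and again GAAA, and for the GAS form TTCNNNGAA, which reads the same on both strands. All 5 genes held at least 1 ISRE core, against 3.99% of 27025 genes with a window, and 2 of them (Gbp7 and Igtp) held a GAS form, against 9.55%. Among the listed other interferon-inducible GTPase genes, 7 of 8 with a window held the core, in 9930111J21Rik1 after the start site. In further lists described below, 13 of 28 other interferon-induced genes, 3 of 17 signalling genes and 1 of 11 genes around ATG8 conjugation held it. None did among the 13 genes of the dynamin superfamily that interferon is not known to induce (0 of 13). The 110 bases before the start site are shown for the 5 genes and for 2 neighbours of Igtp on chromosome 11, Irgm2 and Gm12250, because they hold the matches that the array values are read beside. Capitals mark the matches, which overlap each other in Gbp3 and in Irgm1. Gbp3 had a second window with no match.
Igtp (chr11:58199446-58199555, plus strand): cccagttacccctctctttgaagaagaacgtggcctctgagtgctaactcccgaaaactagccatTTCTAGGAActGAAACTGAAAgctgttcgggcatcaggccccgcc
Irgm2 (chr11:58214867-58214976, plus strand): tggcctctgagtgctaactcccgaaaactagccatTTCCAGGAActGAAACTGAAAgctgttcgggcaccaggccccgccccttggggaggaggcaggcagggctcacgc
Gm12250 (chr11:58183733-58183842, plus strand): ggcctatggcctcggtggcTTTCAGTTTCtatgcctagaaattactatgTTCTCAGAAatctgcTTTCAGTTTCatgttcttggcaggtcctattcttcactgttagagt
Irgm1 (chr11:48871421-48871530, minus strand): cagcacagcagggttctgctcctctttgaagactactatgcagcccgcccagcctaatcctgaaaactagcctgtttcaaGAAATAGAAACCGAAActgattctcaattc
Gbp2 (chr3:142620553-142620662, plus strand): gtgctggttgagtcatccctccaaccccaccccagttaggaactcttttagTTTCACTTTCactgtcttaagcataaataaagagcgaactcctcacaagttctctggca
Gbp7 (chr3:142530226-142530335, plus strand): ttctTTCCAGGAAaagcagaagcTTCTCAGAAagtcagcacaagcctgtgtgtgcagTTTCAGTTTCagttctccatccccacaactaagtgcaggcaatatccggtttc
Gbp3 (chr3:142559934-142560043, plus strand): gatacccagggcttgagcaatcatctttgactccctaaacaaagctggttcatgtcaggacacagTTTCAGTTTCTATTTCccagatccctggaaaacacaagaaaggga
With Irgm2 shifted by 30 bases, the whole windows of Igtp and Irgm2 matched without gaps in 184 of 270 bases (68.2%). The 79 bases just before the Igtp start site, a stretch chosen after the sequences were seen, matched in 77. In both genes a GAS form stood 2 bases before an ISRE core. The windows of Tgtp1 and Tgtp2, other interferon-inducible GTPase genes of chromosome 11, held the same order and spacing. The arrangement was thus not particular to Igtp and Irgm2. A match of letters is a description of the window and does not show that a factor was bound there.

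Genes are called measured where their log2 value reached a background level, set per array at the 95th percentile of 1528 probe sets for chemosensory receptors, which liver is not known to express. The level was 3.15 for the untreated array, 3.26 for TMA and 3.16 for EEC+TMA. Of the 9 genes, 6 were measured on all 3 arrays (Gbp2, Gbp7, Gbp10, Igtp, Irgm1 and Iigp1), Gbp3 was measured on 2, and Mx1 and Mx2 on none. Poly-A spike-in controls, which read RNA added before labelling, had a median of 4.95, 5.76 and 4.98 in the order untreated, TMA and EEC+TMA, so the TMA array stood apart from both others. Their part in the differences that use the TMA array was not tested. The label liver was borne out by 10 of 10 hepatocyte markers above background on each array.

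**Figure D1:**
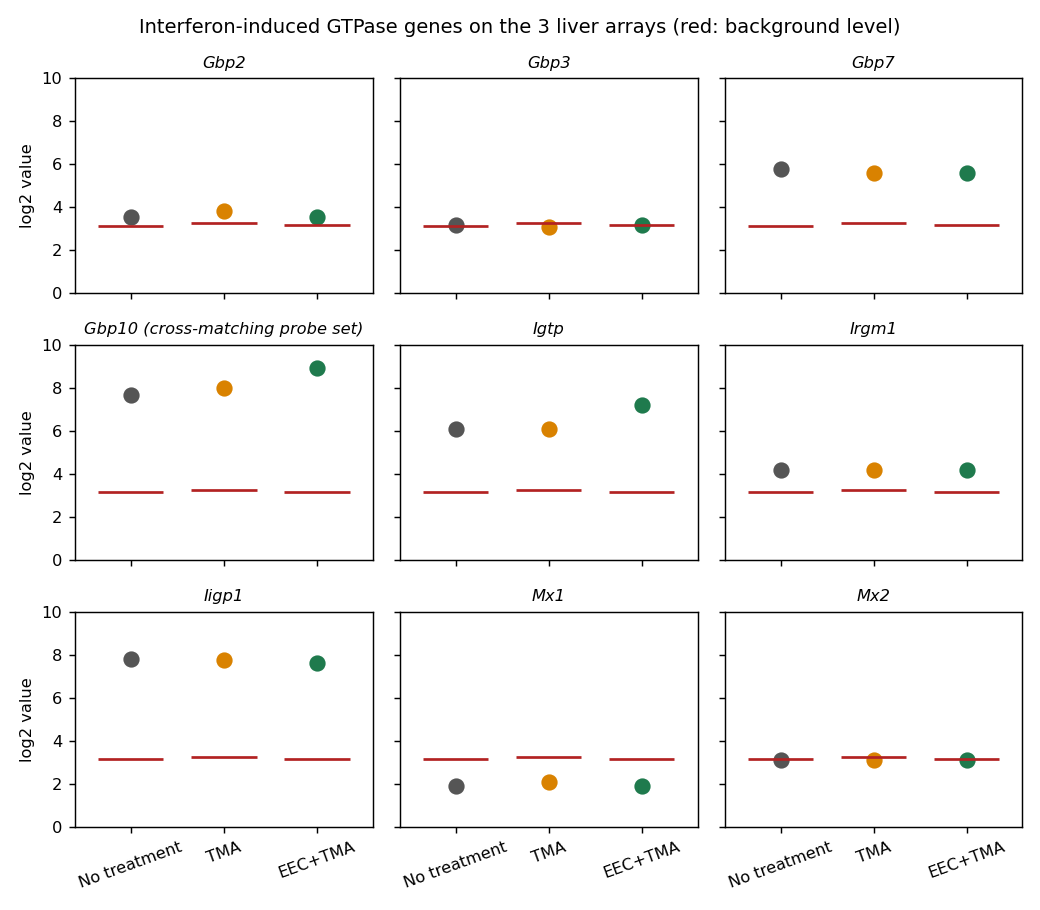
Deposited log2 value (vertical axis) of each of the 9 GTPase genes on the 3 arrays, 1 point per array and no error bars because there is 1 array per group. The red line is the background level of that array. Igtp and Gbp10 were highest on the EEC+TMA array, and Mx1 and Mx2 lay below the background line on every array.

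Igtp and Gbp10 were the members that differed by 2-fold or more in any pair of arrays. Both were highest after the extract plus TMA, as were 19.1% of the 15272 genes measured on all 3 arrays. Igtp, also called Irgm3, is a regulatory immunity-related GTPase of endoplasmic reticulum and lipid droplet membranes in mouse cells. Its probe set (chromosome 11, 58199556 to 58207592, plus strand, 25 probes, marked as unique) read 6.10 untreated, 6.10 with TMA and 7.22 with EEC+TMA. The untreated and TMA values were exactly the same deposited number, which 17 other main probe sets also had on each of those arrays. Igtp was thus 2.16-fold higher on the EEC+TMA array than on either other array. Among genes measured on both arrays, 59 of 15359 had a larger difference of EEC+TMA over TMA, and 16 of 16121 a larger difference of EEC+TMA over no treatment.

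Gbp10 belongs to the guanylate-binding proteins of the chromosome 5 cluster. Its probe set (chromosome 5, 105214907 to 105239533, minus strand, 9 probes) carries cross-hybridisation type 3 in the files, the mixed type in which some probes match other sequence too, so its signal cannot be given to Gbp10 alone. It read 7.67 untreated, 8.02 with TMA and 8.91 with EEC+TMA. The order was untreated, TMA, EEC+TMA, and no neighbouring step can be judged against a spread. Gbp10 was 2.37-fold higher on the EEC+TMA array than on the untreated array, where 8 of 16121 genes had a larger difference. It was 1.85-fold higher than on the TMA array, and the TMA array was 1.28-fold above the untreated one. The files give type 1, a unique match, to the other 8 members.

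The other immunity-related GTPases among the 9 genes, Irgm1 and Iigp1, were not highest on the EEC+TMA array. Irgm1, a regulator of the same protein family that acts in autophagy and vacuole control (chromosome 11, 48861968 to 48871683, minus strand), read 4.21 on each of the 3 arrays, to the last deposited digit. Of the genes measured on all 3 arrays, 35.4% likewise had 1 value throughout. The number 4.21 of Irgm1 was shared by 164 other main probe sets untreated, 157 with TMA and 174 with EEC+TMA. Iigp1, an effector GTPase also called Irga6 that loads onto parasite vacuoles (chromosome 18, 60376029 to 60392634, plus strand), read 7.80, 7.74 and 7.60 in the order untreated, TMA and EEC+TMA. Its EEC+TMA value was 1.15-fold below the untreated value, opposite in direction to Igtp. The log2 difference of Iigp1 between TMA and no treatment was -0.05 as deposited, 0.19 under quantile normalization and 0.12 under a loess correction for level, so its sign depended on the scaling.

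The 3 guanylate-binding protein genes of chromosome 3 were at most 1.18-fold apart wherever they were measured on both arrays. Gbp2, which attacks the Toxoplasma vacuole in mouse cells (142620602 to 142638008, plus strand), read 3.57 untreated, 3.81 with TMA and 3.57 with EEC+TMA, close to the background level on each. Gbp7, reported in mouse macrophages to help assemble the NADPH oxidase (142530338 to 142550083, plus strand), read 5.77, 5.58 and 5.58 in the same order, with the TMA and EEC+TMA values exactly the same. Gbp3 (142560052 to 142573212, plus strand) read 3.20 both untreated and with EEC+TMA, and 3.08 with TMA, where it lay below background. A much lower level of Gbp2 or Gbp3 could not have been measured on these arrays.

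Both Mx genes lay below background on all arrays. Mx1, a nuclear protein that blocks influenza virus in mice with an intact gene (chromosome 16, 97447035 to 97462907, minus strand), read 1.91 untreated, 2.06 with TMA and 1.91 with EEC+TMA. Mx2, a cytoplasmic antiviral protein in mice with an intact gene (chromosome 16, 97536081 to 97560970, plus strand), read 3.08 on each array. RefSeq gives both as transcribed pseudogenes in the reference strain, and the state of these genes in ICR mice was not analysed here. No fold is given where both arrays are below background. Coordinates are those of the files. The sources used here name no build for them, but all 9 probe sets overlapped the locus of the same gene in GRCm38.p6.

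TMA was first compared with no treatment, a contrast of trimethylamine together with 2 weeks of distilled water that the untreated group is not said to have had. No member was 2-fold apart (0 of 9), where 0.993% of all genes were, 0.34% higher and 0.653% lower. Of the 6 members measured on both arrays, Gbp10 and Gbp2 were higher by 0.36 and 0.24 (log2 difference), Gbp7 and Iigp1 had differences of -0.19 and -0.05 (Iigp1 above 0 under quantile and loess), and Igtp and Irgm1 were identical. The median log2 difference of the 6 was 0, as it was over all 15323 genes measured on both arrays, of which 19.4% were higher, 38.5% lower and 42.1% identical. Under quantile normalization the split of the 6 became 4 higher and 2 lower with a median of 0.19, and over all genes the share of 2-fold differences that were higher went from 34.2% to 53.4%.

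The effect of the extract on top of the amine is addressed by EEC+TMA against TMA. Igtp was the 1 member of 9 at least 2-fold apart, where 0.514% of all genes were, 0.32% higher and 0.194% lower, and since these values chose the members nothing is read from that share. Gbp10 followed with a log2 difference of 0.89 against 1.11 for Igtp. Gbp2 and Iigp1 had differences of -0.24 and -0.15, Gbp7 and Irgm1 were identical, and the median over the 6 measured members was 0. Of the 15359 genes measured on both arrays 37.2% were higher, 19.6% lower and 43.2% identical. Quantile normalization took Igtp to 0.95, below 2-fold, and Gbp10 to 0.66, and split the 6 members into 3 higher and 3 lower. Over all genes it turned the share of 2-fold differences that were higher from 62.3% to 39.3%.

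EEC+TMA against no treatment does not involve the TMA array. Igtp and Gbp10 made 2 of 9 members at least 2-fold apart, both higher, where 0.653% of all genes were apart, 0.0841% higher and 0.569% lower, and since these values chose the members nothing is read from those shares. Gbp2, Gbp3 and Irgm1 had exactly the untreated value, as had 54.7% of the 16121 genes measured on both arrays. Gbp7 and Iigp1 had differences of -0.19 and -0.20. The differences of Igtp (1.11 to 1.13) and Gbp10 (1.25 to 1.26) hardly moved over the deposited scaling, median centring, quantile normalization and loess. In this pair median centring and loess left both values unchanged, so quantile normalization alone rescaled them. The comparisons share arrays pairwise, so the higher Igtp value on the EEC+TMA array enters both comparisons with that array.

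**Figure D2:**
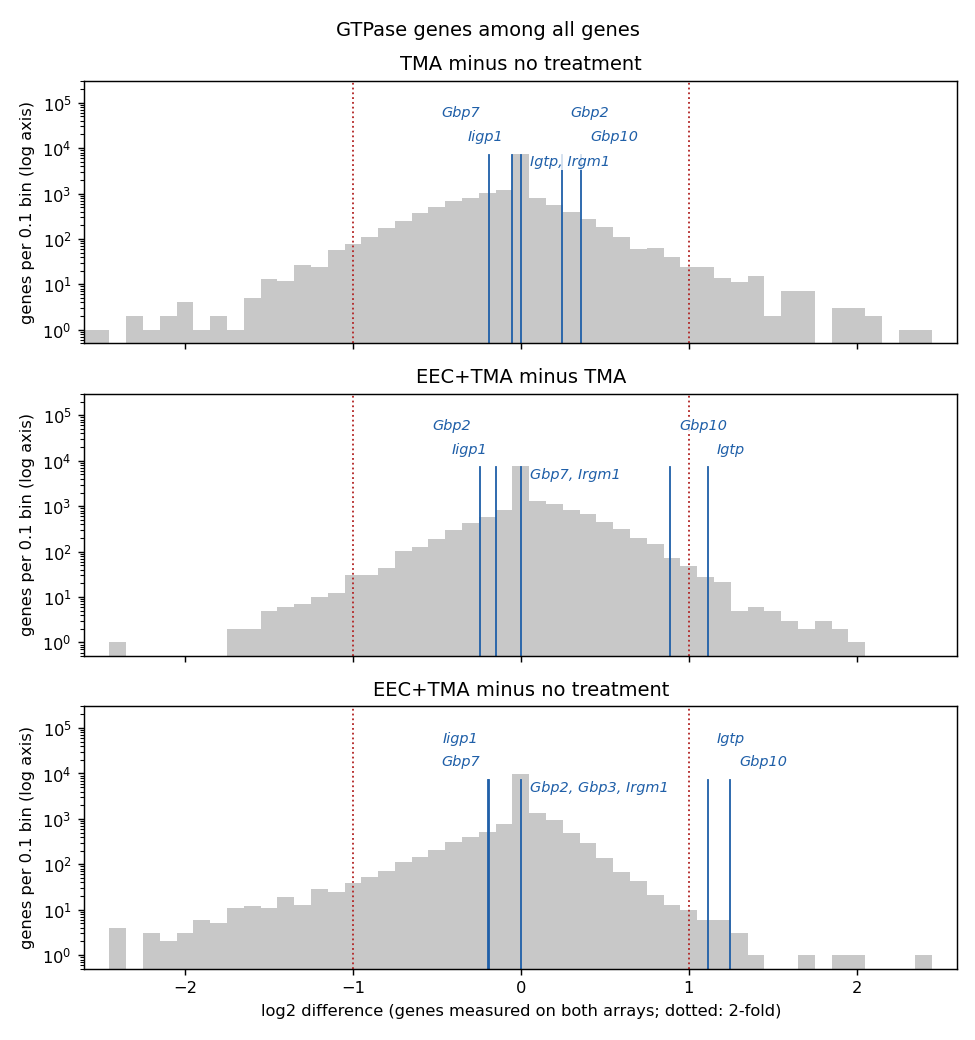
Number of genes (log axis) per bin of log2 difference, for genes measured on both arrays of each pair, with the GTPase genes marked by blue lines and 2-fold by dotted lines. Igtp lay past the upper 2-fold line in the pairs EEC+TMA minus TMA and EEC+TMA minus no treatment and Gbp10 in the latter, and no other member passed either 2-fold line.

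**Figure D3:**
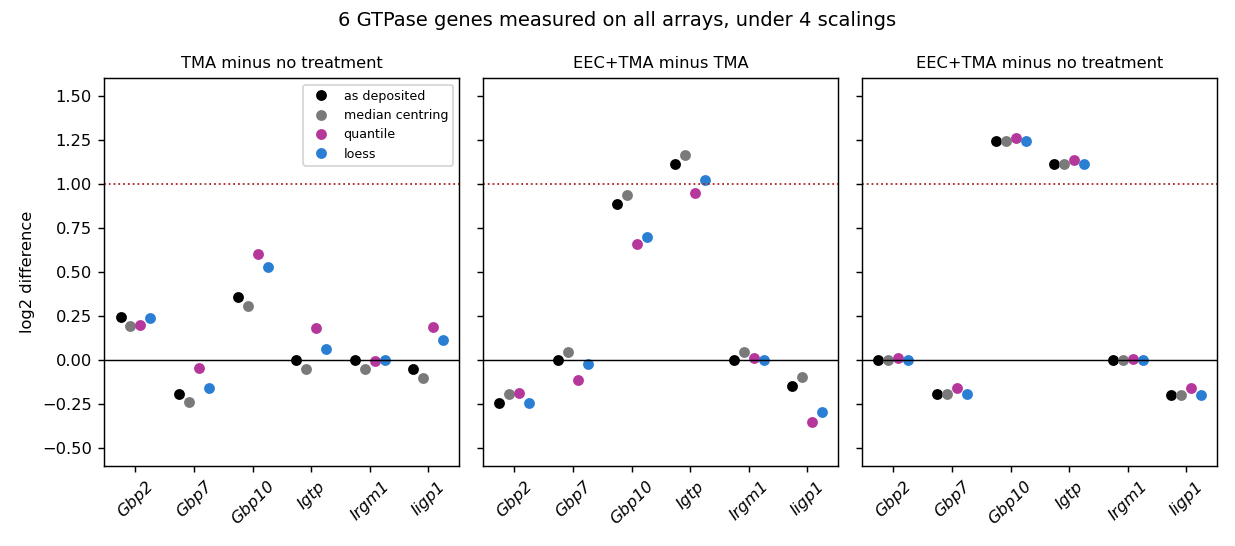
Log2 difference (vertical axis) of the 6 GTPase genes measured on all 3 arrays, for each pair of arrays, under the deposited scaling and 3 others, 1 point per scaling. The points of EEC+TMA minus no treatment nearly coincide, and median centring and loess left the values of that pair unchanged. Those of the pairs with the TMA array spread more widely, and Igtp crosses the dotted 2-fold line between 1.16 and 0.95 in EEC+TMA minus TMA.

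Other interferon-inducible GTPase genes were taken from a list of 21 entries, of which 3 are synonyms of listed genes and 18 were on the array. Of these, 9 were measured on all 3 arrays. The neighbours of Igtp on chromosome 11 were also highest on the EEC+TMA array. Gm12250, which RefSeq also names Irgb10, read 3.68 both untreated and with TMA, and 4.55 with EEC+TMA, a 1.83-fold difference. Irgm2, a regulator like Igtp, read 6.38 untreated, 6.08 with TMA and 6.65 with EEC+TMA, a log2 difference of 0.57 from TMA and 0.27 from no treatment. On the same chromosome the gene 9930111J21Rik1 went the other way, at 4.26, 3.66 and 3.32.

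The measured genes of this family beside Iigp1 on chromosome 18 were lower than untreated on both other arrays, each by more than any member differed from untreated on the same array. F830016B08Rik, which RefSeq also names Ifgga4, read 6.44 untreated and 5.28 with TMA, and its log2 difference between EEC+TMA and no treatment was -2.45. It was 2.25-fold lower with TMA and 5.45-fold lower with EEC+TMA than without treatment. Gm4951, also named Ifgga2, read 8.06, 6.56 and 6.69 in the same order, and in the authors' deposited table it has a signed fold of -2.83 for TMA against no treatment. Among the measured immunity-related GTPases, the log2 difference between EEC+TMA and no treatment was thus above 0 for Igtp (1.11), Gm12250 (0.87) and Irgm2 (0.27). It was 0 for Irgm1 and for Ifi47, a gene of chromosome 11 that belongs to a list described below. It was below 0 for Iigp1 (-0.20), 9930111J21Rik1 (-0.94), Gm4951 (-1.38) and F830016B08Rik (-2.45).

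Among the other guanylate-binding proteins, Gbp2b read 2.85 on the untreated array, below background, 3.49 with TMA and 3.79 with EEC+TMA. It was at least 1.55-fold higher on the EEC+TMA array and at least 1.26-fold higher on the TMA array than the untreated background. Gbp4 was above background on the TMA array alone, at 3.59 against 2.10 untreated and 2.35 on the EEC+TMA array, which is at least 1.35-fold over either background. The authors' deposited table gives Gbp4 a signed fold of 2.81 for TMA against no treatment, computed from a value below background. It holds none of the 9 members, but its smallest fold in either direction is 2.51. Gbp10, the member furthest apart in that pair, differed 1.28-fold, so no member could be in it. Gbp11, a transcribed pseudogene in RefSeq, read 7.78, 8.01 and 8.12, and Gbp9 read 5.61, 5.94 and 5.62. Gbp5 read 2.99, 3.38 and 3.13, above background on the TMA array alone, while Gbp8 (3.56), the very large GTPase genes Gvin1 (3.25) and Gm4070 (3.85) had identical values on all arrays, with both of the latter marked as cross-hybridising. The probe set named Gbp6, annotated over an interval that encloses the Gbp10 locus, read 2.44 on each array, below background. Tgtp1, Tgtp2, Gm4841 and 9930111J21Rik2 were below background throughout. The GAS form just before an ISRE core, which Tgtp1 and Tgtp2 shared with Igtp and Irgm2, thus also stood in genes that were not measured on any array.

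**Figure D4:**
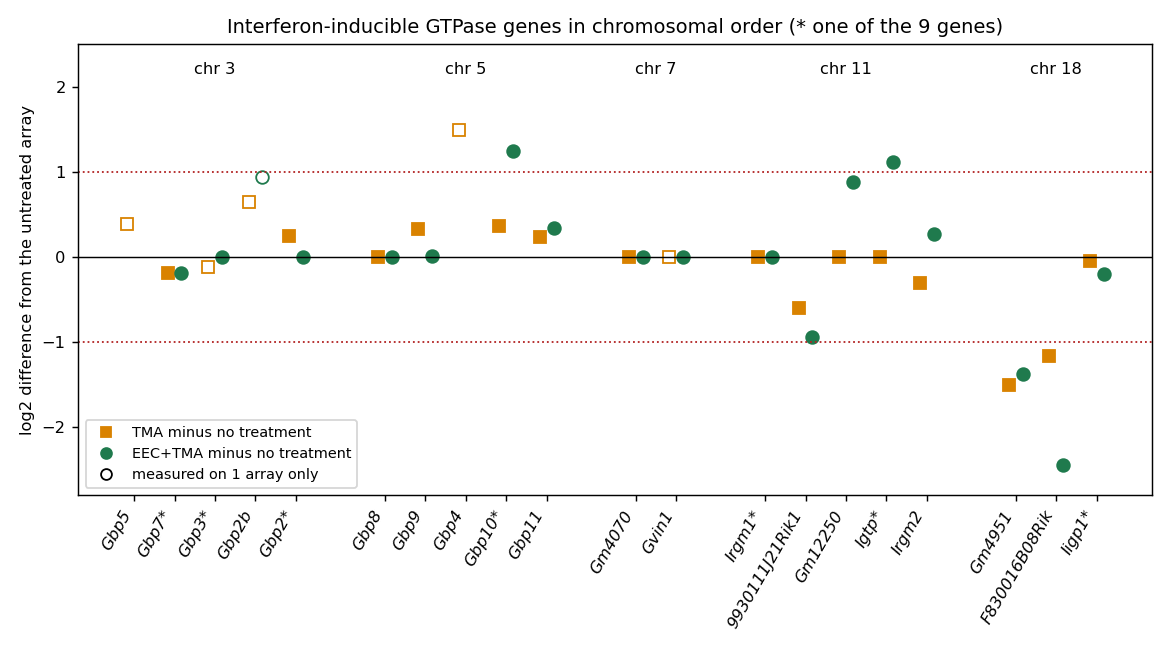
Log2 difference from the untreated array (vertical axis) of members and other listed GTPase genes measured on at least 1 array, without Ifi47. They stand in chromosomal order and not to genomic scale, with squares for TMA and circles for EEC+TMA. Open symbols mark genes measured on 1 array of the pair, and dotted lines mark 2-fold. Open symbols show the plain difference, without raising the lower value to background. Gbp4 thus stands at 1.49 with TMA but was not called 2-fold apart. On chromosome 11 Gm12250 and Igtp lay at 0.87 and 1.11 with EEC+TMA, and on chromosome 18 F830016B08Rik and Gm4951 lay at -2.45 and -1.38.

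The signalling genes that drive these GTPases were taken from a list of 22 receptors, kinases and transcription factors. Of 20 measured on both the untreated and EEC+TMA arrays, 7 were above, 2 below and 11 equal to the untreated value, with a median of 0 and none 2-fold apart. Over all 16121 genes 25.4% were higher and 19.9% lower. Irf9, a transcription factor of the type I interferon response, read 5.17 untreated, 5.17 with TMA and 5.99 with EEC+TMA, 1.76-fold above no treatment. Irf1, an early interferon-gamma target, was higher by 0.47 (log2 difference), Irf3 by 0.33 and Stat2 by 0.25, while the receptor kinase gene Jak2 differed by -0.37. The interferon-gamma receptor genes Ifngr1 and Ifngr2 had identical values on the 3 arrays, and the interferon-gamma gene Ifng lay below background at 2.38 on each.

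A list of other interferon-induced genes had 31 measured on both the untreated and EEC+TMA arrays. Of these, 15 were higher, 2 lower and 14 identical, with a median of 0, where 25.4% of all genes were higher and 19.9% lower. The list lies outside the GTPases except for Ifi47, an immunity-related GTPase gene that read 3.68 on each array. The chemokine gene Cxcl9, an interferon-gamma target, had the largest difference among these 31 at 5.05, 5.31 and 6.07 in the order untreated, TMA and EEC+TMA. Ifit3, an interferon-induced gene of the same list, was above background on the EEC+TMA array alone, at 4.14 against 2.42 untreated. That is at least 1.99-fold over the untreated background and at least 1.85-fold over that of the TMA array. Its probe set has 8 probes and cross-hybridisation type 3, so the signal cannot be given to Ifit3 alone. The immunoproteasome genes Psmb10 and Psmb8 were higher by 0.81 and 0.53 (log2 difference), the nucleic acid sensor gene Zbp1 by 0.74, the peptide transporter gene Tap1 by 0.54 and the virus-tethering gene Bst2 by 0.45. For TMA against no treatment the same list had 5 higher, 9 lower and 16 identical of 30, where all genes had 19.4% higher and 38.5% lower. Quantile normalization, which moves identical values apart, gave 29 higher and 0 lower of 31 for EEC+TMA against no treatment, where it gave 12697 higher and 3015 lower over 16119 genes, and 19 higher and 10 lower of 30 for TMA against no treatment, where it gave 7691 higher and 7521 lower over 15323 genes. A list of 14 genes was built around the ATG8 conjugation machinery, which helps to place these GTPases on vacuoles. It also holds Ube2l6, Trim21, Traf6 and Sqstm1, which are not part of that machinery. This list had 6 higher, 2 lower and 6 identical for EEC+TMA against no treatment. Its largest differences were 0.33 for Map1lc3b, 0.31 for Ube2l6, 0.27 for Gabarap, 0.24 for Trim21 (also in the previous list), -0.15 for Atg12 and 0.13 for Sqstm1. For TMA against no treatment it had 0 higher, 10 lower and 4 identical, which turned to 10 higher and 4 lower under both quantile normalization and loess. Loess gave 7075 higher and 8245 lower over 15320 genes in that pair. The related dynamin superfamily genes that interferon is not known to induce had 1 higher, 5 lower and 7 identical of 13, and the mitochondrial fission gene Dnm1l was lowest at a log2 difference of -0.86, followed by -0.37 for Atl3, -0.33 for Mfn1, -0.25 for Dnm1 and -0.12 for Ehd3, with 0.17 for Dnm2. These lists are described by counts alone and were not tested.

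The likeness rule, which sought genes with the median profile of the members, singled out no gene, because that median was 0 for both differences and 5412 of 15272 genes measured on all 3 arrays had exactly that profile. The genes nearest to Igtp and to Gbp10 were therefore taken, a choice made after their values were seen, by the Euclidean distance of the 2 log2 differences from the untreated array. Nearest to Igtp were the class II histocompatibility gene H2-Ab1 (distance 0.20), the glutathione transferase gene Gstm3 (0.24), the esterase gene Esd (0.24) and the acute phase gene Saa3 (0.24). Nearest to Gbp10 were the class II invariant chain gene Cd74 (distance 0.054), the apolipoprotein gene Apol9b (0.13), Slc41a2 (0.23), Esd (0.24) and Cxcl9 (0.24). The probe set of Apol9b, like that of Gbp10, is of cross-hybridisation type 3. Each distance rests on 3 arrays, 1 of them shared by both differences.

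Markers of other liver cells were set beside these values. All 13 Kupffer cell and macrophage markers were above background on each array, and their summed linear signal was 684 untreated, 771 with TMA and 877 with EEC+TMA. Of them, 12 were above and 1 below the untreated value on the EEC+TMA array, with a median log2 difference of 0.25. Over all genes measured on both arrays 25.4% were higher and 19.9% lower. Single markers did not all follow the order of the sum, as Marco and Lyz2 were highest on the TMA array and Csf1r and Folr2 lowest there. Hepatocyte markers were below the untreated value on the TMA array in 8 of 10 (median log2 difference -0.25), where 38.5% of all genes were lower and 19.4% higher. They were above the untreated value on the EEC+TMA array in 8 of 10 (median 0.05). All marker counts are on the deposited scaling alone. All 10 sinusoidal endothelial markers were above background, with sums of 1527, 1133 and 1629. Of 12 T and NK cell markers 5 were above background on each array, and Cd3d, Cd3g, Cd8a, Ncr1, Klrb1c, Gzma and Gzmb were below it on all. Of 8 B and plasma cell markers 3 were above background, with sums of 193, 227 and 204, and 6 of 7 neutrophil and monocyte markers were below it on all arrays. The part of macrophage markers in the values of Igtp and Gbp10 was not tested.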

How the data were processed

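Liver RNA from 3 groups was read on 1 MoGene-2_0-st array each. The authors deposited log2 values per probe set. The sources used here do not say how these were summarised and normalized. A second deposited table holds the same log2 values, with a largest difference of 5e-05. The authors' deposited fold lists were used for 2 genes (signed fold). The 9 genes, the gene lists and the alternatives were chosen with earlier results of these data known.

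Python 3.11.15 with pandas 2.3.3 was used. Of several main probe sets with 1 symbol, that of highest mean level was kept. Values below the background level were raised to it before a difference was called 2-fold (at least 1 in log2). Where 1 array of a pair was measured, the fold is a lower bound against the other's background. With 1 array per group no test was made, and the precision is limited by the number of arrays.

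Named genes were all members, all genes of the other GTPase list measured on any array, and 6 genes of each further list with the largest difference of EEC+TMA against no treatment among those measured on both arrays, of which 1 gene is not reported here. Gbp6, Tgtp1, Tgtp2, Gm4841, 9930111J21Rik2, Ifi47, Ifit3, Ifng, Ifngr1, Ifngr2 and the genes near Igtp and Gbp10 were added after their values were seen. Alternatives were other scalings (median centring, quantile, loess), background levels, fold thresholds, probe set choices and the second table. Scripts were tested on simulated data. Promoters are RefSeq sequences of GRCm38.p6.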

Additional observations from a re-analysis of the deposited data

How the results depend on the processing

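With 1 array per group no replicate could be left out, and no paired analysis was possible because each group has 1 array. The counts of members at least 2-fold apart were 0 for TMA minus no treatment, 1 for EEC+TMA minus TMA and 2 for EEC+TMA minus no treatment. The count of EEC+TMA minus TMA became 0 under quantile normalization, 2 at a threshold of 1.5-fold and 0 at 3-fold. The count of EEC+TMA minus no treatment became 0 at 3-fold, and 1 with unique probe sets alone, which leaves out Gbp10. The median of the members was 0 in each pair. It became 0.19 for TMA minus no treatment under quantile normalization, and 0.44 for EEC+TMA minus TMA and 0.46 for EEC+TMA minus no treatment with background at the 99th percentile, where fewer members count as measured. The cause of the shift under quantile normalization was not tested. Of 240 recomputed differences of single members 228 moved by less than 0.1 (log2) and 12 by more, all 12 in pairs with the TMA array. Under quantile normalization 8 moved by more and 19 by less, and under loess 4 and 23. The other settings could not move a difference that far, so the 228 are no measure of stability. Each member had 1 probe set, the background level does not enter these differences, and the second table holds the same values. Median centring shifted them by at most 0.05. No member past 2-fold changed sign, while the difference of Iigp1 between TMA and no treatment went from -0.05 to 0.19 and 0.12. Values near background, such as those of Gbp2 and Gbp3, leave little room to see a lower level.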
